A study of Homo sapiens with 53 samples.

Results

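The broad CTCF-free MBD3 domains are 1033 regions of the human genome in which MBD3 was enriched over a long stretch in vehicle-treated HEK293T cells while CTCF was not called. They were chosen by joining the overlapping or touching intervals of the DMSO MBD3 peak list, keeping joined regions of 800 bp or wider on chromosomes 1 to 22 and X, and dropping every region that overlapped an interval of the DMSO CTCF list. They make up 1.26% of the 81784 MBD3 regions on these chromosomes. Regions of this width numbered 9571, or 11.7% of all MBD3 regions, and 8538 of them overlapped CTCF, against 43.3% of MBD3 regions of any width. HEK293T is a human embryonic kidney line. The cells received DMSO, the solvent, or 30 µM BPK-25 for 72 h, and chromatin was immunoprecipitated with antibodies against CTCF or MBD3, or, in edited lines derived from HEK293T that carry Flag-tagged TET1, TET2 or TET3, against Flag. Each of the 10 peak lists stands for 1 target and 1 treatment and was taken as called on pooled replicates (2 for TET2 under DMSO by the labels, 3 for every other group), so no value below has a spread between replicates and no test between treatments was possible. How the tags were introduced, and whether each tagged line is 1 clone, is not given in the sources used here.

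MBD3 is a subunit of NuRD, a complex that joins an ATP-dependent chromatin remodeller to histone deacetylases. Unlike its relative MBD2, MBD3 binds methylated DNA poorly, and NuRD that carries MBD3 is known from promoters and enhancers of active and poised genes. CTCF, a zinc-finger protein, binds a short motif, blocks enhancers at insulators and halts cohesin at the bases of chromatin loops. The TET proteins are dioxygenases that oxidise 5-methylcytosine, a step towards its removal. BPK-25 is an electrophilic compound known for lowering the amount of NuRD subunits in cells.

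The rule fixed the width of the domains and the absence of a DMSO CTCF call, so the values of the DMSO MBD3 list describe the members and support nothing. The domains covered 1.07 Mb in all. Their median width was 955 bp (quartiles 861 and 1127), and the widest spanned 2766 bp, whereas the broad MBD3 regions with CTCF had a median of 1124 bp and reached 9572 bp. Most domains were made of several enriched points. A single summit was called in 57 domains, 3 or more in 629 (60.9%), and at most 9. Neighbouring summits lay a median of 319 bp apart (quartiles 250 and 402). In the 976 domains with more than 1 summit, the strongest summit had a median of 1.60 times the fold enrichment of the weakest, against 2.19 times in broad regions with CTCF. The fold enrichment at a summit is the authors' ratio of fragment pileup to local background, with 1 fragment added to each, which lowers the ratio where the background is low. At the strongest summit of each domain its median was 5.13 (quartiles 3.99 and 6.87), compared with 8.56 in broad regions with CTCF and 3.22 in narrow regions, those under 800 bp, without it. In fragments, the pileup had a median of 34, or 10.6 times the genome background of the list. The genome background is the lowest local background found in a list, and dividing by it puts lists of different depth on 1 scale. The local background of every domain was below 20 times the genome background, with a highest value of 11.8. The -log10 q of the strongest summit, the authors' measure of significance after adjustment for multiple tests, had a median of 12.8 (quartiles 7.38 and 21.7) and ran from 2.38 to 478. At the width limit, the 61 members of 800 to 809 bp had a median fold enrichment of 5.26 and the 60 CTCF-free regions of 790 to 799 bp one of 4.86.

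Although free of CTCF calls, the domains were not far from CTCF. The nearest DMSO CTCF peak lay a median of 3109 bp away (quartiles 837 and 8610), and 283 domains (27.4%) had one within 1000 bp. For the 45375 narrow CTCF-free MBD3 regions, the median gap was 4588 bp and 20.2% had a CTCF peak within 1000 bp. Other MBD3 peaks were also close by, at a median gap of 863 bp against 2634 bp for the narrow regions. As a share of the MBD3 regions on each chromosome, the domains ranged from 0.928% on chromosome 13 (95% exact Clopper-Pearson interval 0.542 to 1.48, 17 domains) to 1.71% on chromosome 10 (1.34 to 2.14, 73 domains). Here and below, intervals cover counting error only.

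Most domains stood alone. With gaps of up to 50 kb allowed, 796 had no other member nearby, and 237 lay in 80 pairs and 21 longer runs. The longest run held 11 domains of 817 to 1877 bp within 162 kb of chromosome 16 (chr16:1052291-1213952, hg19), with fold enrichments from 3.19 to 7.88. All 11 overlapped a BPK-25 MBD3 peak, and 3 overlapped a DMSO TET3 peak. The run on chromosome 17 (chr17:46623653-46704350) showed another picture. Of its 6 domains, 2 were in the BPK-25 MBD3 list and 4 in the DMSO TET3 list, and 22 DMSO CTCF peaks lay between its ends. The 5 domains of chr8:86748566-86840773 had the lowest fold enrichments of the 4 longest runs, 2.33 to 2.84, over a local background of 3.81 to 6.15 times the genome background. All 5 were kept under BPK-25, and 0 carried TET3. The 4 domains of chr4:1752910-1799391, with fold enrichments of 4.44 to 5.28, were all kept as well, and 0 carried TET3.

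The first comparison asks which domains still held an MBD3 peak after BPK-25. Of the 1033 domains, 788 (76.3%, interval 73.6 to 78.8) overlapped a BPK-25 MBD3 peak by at least 1 bp, against 61.4% of all DMSO MBD3 regions. The share was 97.8% (97.5 to 98.1) in broad regions with CTCF and 48.3% (47.8 to 48.7) in narrow regions without. The broad regions with and without CTCF therefore differed by more than counting error. The BPK-25 list holds 241851 peaks on these chromosomes, and when it was cut to as many of its strongest peaks as the DMSO list has, 51.2% of the domains were kept. The shortened list was not applied to the other classes. Requiring BPK-25 peaks to cover at least 50% of a domain left 471 (45.6%). The same requirement left 19328 of the 45375 narrow regions without CTCF, a share near that of the domains. It left 6422 of the 8538 broad regions with CTCF.

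BPK-25 peaks filled part of most kept domains. They covered a median of 58.5% of a kept domain (quartiles 33.3 and 83.0), and 224 of the 788 were split over more than 1 BPK-25 peak. The strongest overlapping BPK-25 peak had a median width of 558 bp, and it reached 800 bp or more at 267 domains. At 211 domains the overlapping BPK-25 peaks were together wider than the DMSO domain. In broad regions with CTCF, the median covered share was 69.9%. Around the domain centres, BPK-25 MBD3 peaks covered 46.5% of the centres, a mean of 22.1% of the positions 1000 bp to either side and 14.7% of those 5000 bp away. In the DMSO list, where the centre is covered by construction, the positions 5000 bp away were covered in 8.18% of cases.

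**Figure D1:**
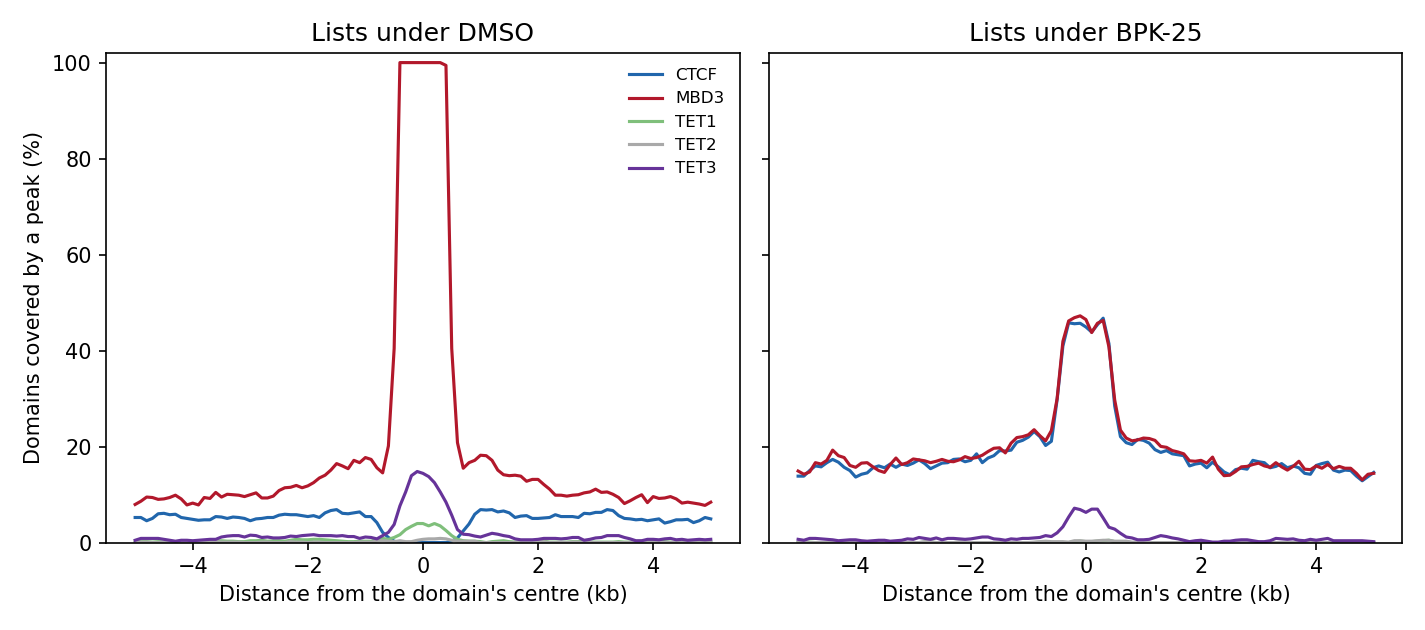
Share of the 1033 broad CTCF-free MBD3 domains (vertical axis, percent) covered by a peak at each distance from the domain's centre (horizontal axis, kb, in steps of 100 bp), for the 5 DMSO lists on the left and the 5 BPK-25 lists on the right. Under BPK-25 the CTCF and MBD3 lines run together, at 44.9% and 46.5% over the centre, and TET3 covers 14.4% of centres under DMSO and 6.29% under BPK-25; the 100% of MBD3 and the gap in CTCF on the left are set by the selection.

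Width and CTCF were each related to whether a region was kept. Among CTCF-free regions, 42.6% of those under 200 bp were in the BPK-25 MBD3 list, 63.2% at 600 to 799 bp, 72.0% (68.3 to 75.5) at 800 to 999 bp and 95.5% (87.5 to 99.1, 67 domains) at 1500 bp or wider. A wider region can meet another peak more easily, so the strongest DMSO summit alone was also examined. It lay inside a BPK-25 MBD3 peak in 57.1% of the domains (54.0 to 60.2), 89.6% of broad regions with CTCF (88.9 to 90.3) and 43.5% of narrow regions without CTCF (43.1 to 44.0), which is the same order. Over all DMSO MBD3 regions this share was 56.3% (55.9 to 56.6), inside the interval of the domains. The strength of a domain under DMSO was only loosely tied to its being kept. When all MBD3 regions were ranked by -log10 q and divided into 10 equal groups, 75.0% of the 224 domains in the 8th group were kept, 70.4% of the 247 in the 9th and 88.4% of the 129 in the strongest. In the strongest group, broad regions with CTCF were kept in 99.0% of cases and narrow regions without it in 53.9% (48.5 to 59.3). Distance to CTCF also went with the share kept, at 82.0% (77.0 to 86.3) of domains with a CTCF peak within 1000 bp and 70.1% (65.4 to 74.6) of those with none within 5000 bp.

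**Figure D2:**
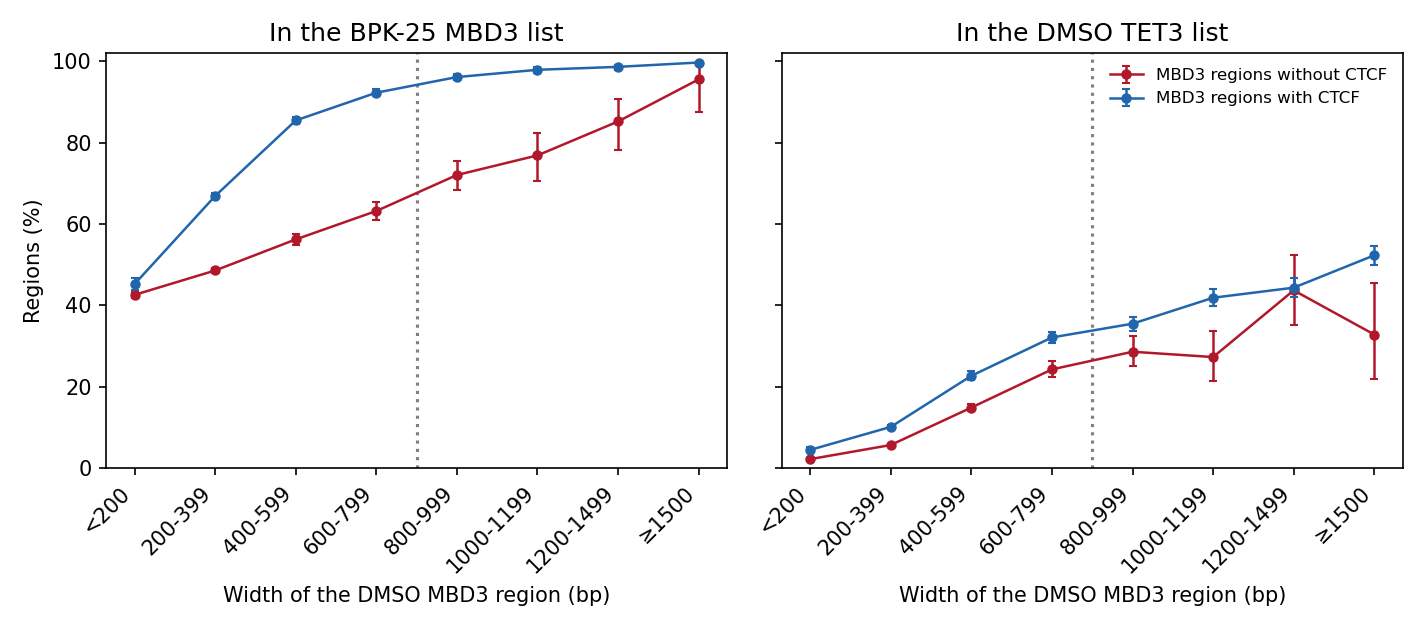
Share of DMSO MBD3 regions (vertical axis, percent) found in the BPK-25 MBD3 list (left) and in the DMSO TET3 list (right) by width class in bp (horizontal axis), for regions without CTCF (red) and with CTCF (blue); bars are exact 95% intervals and the dotted line marks 800 bp. To the right of the line the CTCF-free regions rise from 72.0% to 95.5% kept, below the regions with CTCF in each width class.

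MBD3 signal at matching summits was lower under BPK-25 in somewhat more domains than it was higher. A BPK-25 MBD3 summit lay within 100 bp of the strongest DMSO summit in 499 domains (48.3%), against 76.6% of broad regions with CTCF. At these 499, DMSO pileup had a median of 10.9 times the genome background (quartiles 7.47 and 15.3). The matching BPK-25 pileup had a median of 9.35 times its own genome background (7.01 and 12.5). The BPK-25 value was the lower of the pair at 293 domains (58.7%), and the median ratio of BPK-25 to DMSO was 0.822 (quartiles 0.544 and 1.40). The ratio was 0.5 or less at 99 domains and 2 or more at 61. At 6543 such summits in broad regions with CTCF the median ratio was 0.626 and 83.8% were lower under BPK-25, while at narrow CTCF-free regions it was 1.69 and 16.7% were lower. Because the summits were picked as the strongest of the DMSO list, these ratios are a description. They also cover only summits called in both lists, so a fall below the lowest pileup called does not enter. The matched narrow CTCF-free regions, with a median DMSO pileup of 5.60 times the genome background, lay nearer to that limit than the domains.

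**Figure D3:**
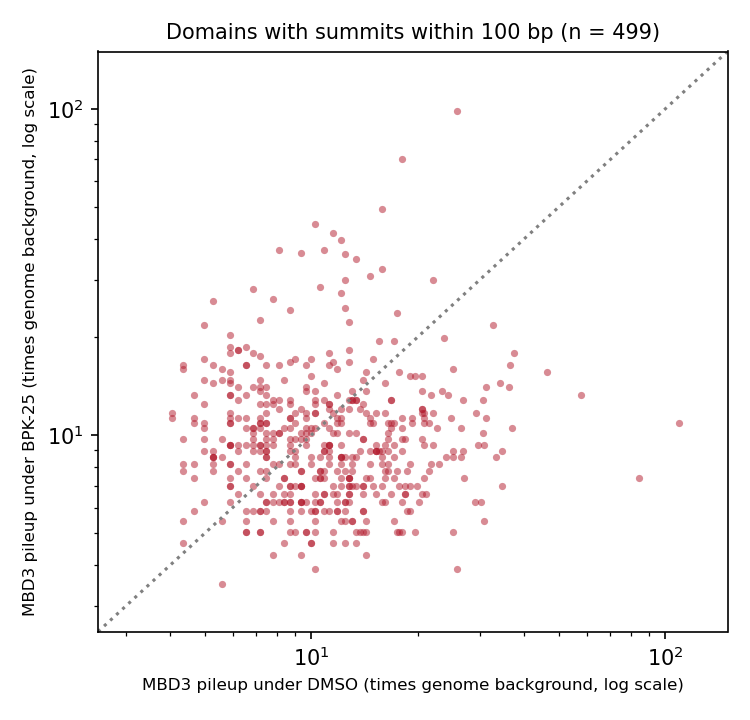
MBD3 pileup at the strongest summit of 499 domains under DMSO (horizontal axis) and at the matching BPK-25 summit within 100 bp (vertical axis), both in multiples of the list's genome background on log scales, with 1 point per domain and the dotted line marking equality. Points lie on both sides of the line, 293 of them below it, and the pair of domains with the highest DMSO pileup, 84.4 and 109 times, lie farthest below it.

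The 6 most significant domains all had lower MBD3 fold enrichments under BPK-25, which is a description, since their high DMSO values chose them. The domain with the highest -log10 q, chr10:64574597-64575881 (1285 bp, 1 summit), had a fold enrichment of 53.5 under DMSO and 5.11 at its strongest BPK-25 MBD3 peak. The domain chr5:107006802-107008207 had the highest fold enrichment of all members, 61.5, and 5.18 under BPK-25, and chr3:69590780-69592170 had 47.5 and 4.95. The fourth, chr1:151170716-151171613, had 15.9 and 2.79. By contrast, chr3:128719920-128721369 had 26.6 and 8.97, and chr1:31711494-31712969 14.2 and 8.17. All 6 were kept, and all 6 also held a CTCF peak under BPK-25, with fold enrichments of 2.51 to 9.23.

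The widest domains were of ordinary strength. The widest, chr5:1282723-1285488, held 8 summits at a highest fold enrichment of 4.26, and its BPK-25 MBD3 peak had the larger value, 11.8. The next, chr15:86707304-86709869, had 7 summits and a fold enrichment of 6.21; it overlapped no BPK-25 CTCF or MBD3 peak but held TET3 peaks in both treatments, at 4.96 under DMSO and 8.30 under BPK-25. The domains chr11:118791101-118793486, chr12:54390019-54392347 and chr14:75416900-75419092 were closer to even: their fold enrichments of 5.53, 4.67 and 5.43 under DMSO stood against 5.01, 4.64 and 3.55 under BPK-25. These 3 lay 246, 164 and 553 bp from a CTCF peak. The remaining one of the 6 widest, chr17:37761404-37763606, was stronger, with 16.8 under DMSO and 7.21 under BPK-25, and its nearest CTCF peak was 14229 bp away.

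A smaller set had no BPK-25 MBD3 peak within 1000 bp, which was so for 181 domains (17.5%). This share was not computed for other MBD3 regions, so whether it is high or low for such regions is not known. The most significant of the 181 domains were chr17:70679561-70680875, with a DMSO fold enrichment of 12.1, chr10:28957320-28958125 with 11.7 and chr6:27197537-27198522 with 11.5. The other three named by the same rule were chr6:151074454-151075354 at 8.99, chr15:96100076-96101054 at 10.7 and chr14:69014780-69015968 at 8.53. None of the 6 was in the BPK-25 CTCF list, and 5 carried a TET peak under DMSO. The exception, on chromosome 14, was in 0 of the 8 other lists and lay 61232 bp from the nearest CTCF peak. Of all 1033 domains, 332 (32.1%) carried a TET peak under DMSO. The 6 were chosen by -log10 q, and TET3 alone was in 42.6% of the domains in the strongest of the 10 groups. These 6 are a description.

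The next comparison sets the domains against the BPK-25 CTCF list, which the selection did not use. Although CTCF was not called in them under DMSO, 769 domains (74.4%, interval 71.7 to 77.1) overlapped a BPK-25 CTCF peak, against 60.4% of all DMSO MBD3 regions. On these chromosomes the CTCF list holds 244084 peaks under BPK-25 and 98272 under DMSO. The strongest MBD3 summit lay inside a BPK-25 CTCF peak in 56.6% of domains (53.5 to 59.7) and 55.0% of all MBD3 regions. Requiring CTCF peaks to cover at least 50% of a domain left 436 (42.2%), and 18918 of the 45375 narrow CTCF-free regions. Cutting the list to as many of its strongest peaks as the DMSO CTCF list has gave 56.3% of domains. The shortened CTCF list was not applied to the other classes either. The CTCF and MBD3 lists of this treatment held nearly the same MBD3 regions, domains or not. Of the 788 kept domains, 92.0% (89.9 to 93.8) were also in the CTCF list, close to the 90.5% of all kept MBD3 regions. The share was 18.0% (13.4 to 23.3) among the 245 not kept. Both lists held 725 domains (70.2%, against 55.6% of all MBD3 regions), CTCF alone 44, MBD3 alone 63 and neither 201. The strongest CTCF peak of a domain had a median fold enrichment of 4.92 (quartiles 3.93 and 6.32) and the strongest MBD3 peak one of 4.94 (3.84 and 6.38). By the labels both immunoprecipitates of a treatment have 1 set of inputs, and whether the BPK-25 CTCF calls in the domains come from CTCF was not tested.

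**Figure D4:**
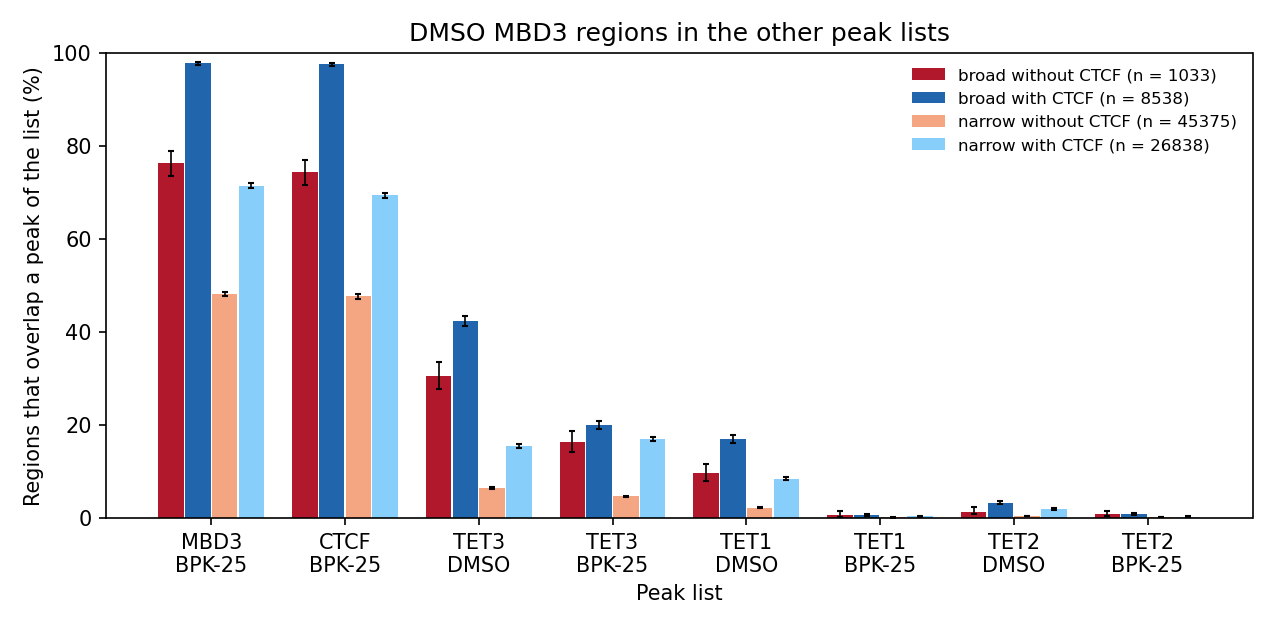
Share of regions (vertical axis, percent) that overlap a peak of each of 8 lists (horizontal axis) for the 4 classes of DMSO MBD3 region, with exact 95% intervals. The broad CTCF-free domains (dark red) stand at 76.3% in the BPK-25 MBD3 list and 74.4% in the BPK-25 CTCF list, between the broad regions with CTCF and the narrow regions without it, and at 30.6% in the DMSO TET3 list.

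The TET lists come from other lines and inputs and were likewise not used for the selection. Under DMSO, 332 domains (32.1%, interval 29.3 to 35.1) overlapped a peak of at least 1 TET protein, against 15.5% of all MBD3 regions. TET3 accounted for most of them, with 316 domains (30.6%, 27.8 to 33.5, against 13.5% of all). TET1 was in 100 domains (9.68%, 7.95 to 11.6, against 5.96%) and TET2 in 15 (1.45%, 0.815 to 2.38, against 1.26%), so the share with TET2 was close to that of MBD3 regions at large. These overlaps also favour wide regions. At the strongest MBD3 summit alone, TET1 was in 5.42% of domains (4.12 to 6.98) and 4.07% of all MBD3 regions (3.94 to 4.21). For TET2 these shares were 0.871% and 0.878%, and for TET3 19.1% and 8.32%. Of the 100 TET1 domains, 84 also had TET3 (interval 75.3 to 90.6%), close to the 82.8% of broad regions with CTCF. The TET peaks were narrower than the domains that held them. The strongest TET3 peak had a median width of 329 bp and a median fold enrichment of 4.66 (quartiles 3.80 and 5.87). When only peaks with a -log10 q of at least 10 were used in every list, 7.08% of the domains so defined had a TET peak, and 6.97% of the main set had at least 50% of their length covered by TET peaks. Neither share was computed over all MBD3 regions, so neither tests the excess over them. TET3 peaks alone covered at least 50% of 70 domains, 604 of the 8538 broad regions with CTCF and 2035 of the 45375 narrow CTCF-free regions.

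The share with TET3 rose with the DMSO strength of the domain, from 24.4% in the 7th of the 10 groups by -log10 q to 33.5% in the 8th, 41.3% (35.1 to 47.7) in the 9th and 42.6% (34.0 to 51.6) in the strongest. In that strongest group the narrow CTCF-free regions had 41.2% (35.9 to 46.6), close to the domains. In the 8th group they had 21.4%, below the interval of the domains there (27.3 to 40.1). By width there was no steady order: TET3 was in 28.6% of domains of 800 to 999 bp, 27.3% at 1000 to 1199 bp, 43.7% (35.2 to 52.5) at 1200 to 1499 bp and 32.8% (21.8 to 45.4) at 1500 bp or wider. By structure, it was in 15.8% (7.48 to 27.9) of the 57 domains with 1 summit and in 33.9% (27.9 to 40.3) of the 239 with 4 or more.

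TET3 summits lay closer to the MBD3 summit in the CTCF-free domains than in broad regions with CTCF, which are also wider. Broad regions with CTCF overlapped TET3 more often, in 42.4% of cases (41.3 to 43.4). At the strongest MBD3 summit itself the order was the opposite. A DMSO TET3 peak covered that summit in 19.1% of the CTCF-free domains (16.7 to 21.6) and in 14.9% of broad regions with CTCF (14.2 to 15.7). The share was 8.32% (8.13 to 8.51) over all MBD3 regions and 5.12% (4.92 to 5.33) in narrow CTCF-free regions. Where both were present, the TET3 and MBD3 summits were a median of 138.5 bp apart in the CTCF-free domains and 319 bp apart in broad regions with CTCF, and 42.7% against 20.9% lay within 100 bp. In narrow CTCF-free regions the summits were closer still, a median of 66 bp apart with 63.5% within 100 bp.

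Fewer domains carried TET peaks under BPK-25. The lists themselves went from 5951 to 447 peaks for TET1, from 1233 to 509 for TET2 and from 14129 to 13360 for TET3. TET3 was in 170 domains (16.5%, 14.2 to 18.9, against 10.5% of all MBD3 regions), and 133 domains had it in both treatments, 183 under DMSO alone and 37 under BPK-25 alone. TET1 was in 8 domains (0.774%, 0.335 to 1.52, against 0.345%), 7 of which had it under DMSO, and TET2 in 9 (0.871%, 0.399 to 1.65, against 0.342%), 8 of which had it under DMSO. Of the domains with TET3 under DMSO, 42.1% (36.6 to 47.7) had it under BPK-25, and the share was 36.2% (34.6 to 37.8) in broad regions with CTCF.

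Domains with TET3 under DMSO were kept by MBD3 less often than the others. Of the 316 with TET3, 199 were in the BPK-25 MBD3 list (63.0%, interval 57.4 to 68.3), against 589 of the 717 without (82.1%, 79.1 to 84.9), a difference of -19.2 percentage points (-25.4 to -13.0). The domains with TET3 were slightly wider and more significant under DMSO, with medians of 975.5 bp and a -log10 q of 17.1 against 950 bp and 11.0. They were kept less often both at 800 to 999 bp, at 55.1% against 78.8%, and at 1000 bp or wider, at 72.9% against 87.4%. By strength, the shares were 59.1% against 81.5% in the 8 weaker of the 10 groups by -log10 q, and 83.6% (71.2 to 92.2) against 91.9% (83.2 to 97.0) in the strongest, where the intervals overlap. The lower share with TET3 was also seen with a CTCF peak within 1000 bp (72.9% against 85.9%) and with none within 5000 bp (54.1% against 78.3%). With TET1 the shares were 54.0% (43.7 to 64.0) of 100 domains and 78.7% (75.9 to 81.3) of the 933 without. The median local background of the DMSO MBD3 list was 2.00 times the genome background in domains with TET3 and 1.51 in those without, and its part in the difference was not tested. Using only peaks of at least 10 in -log10 q defines another set, of 2147 domains, since weak CTCF peaks no longer remove regions. In that set the shares were 53.7% and 57.4%, and the interval of the difference of -3.61 percentage points included 0 (-12.3 to 4.93).

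The other classes of MBD3 region gave other values. In broad regions with CTCF 97.1% of those with TET3 and 98.3% of those without were kept. In narrow CTCF-free regions it was 31.6% (29.9 to 33.3) against 49.4% (49.0 to 49.9), and narrow regions with CTCF were kept more often with TET3, at 76.5% (75.2 to 77.8) against 70.5% (69.9 to 71.1). The BPK-25 CTCF list behaved like the MBD3 list, holding 61.7% of the domains with TET3 and 80.1% of those without.

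**Figure D5:**
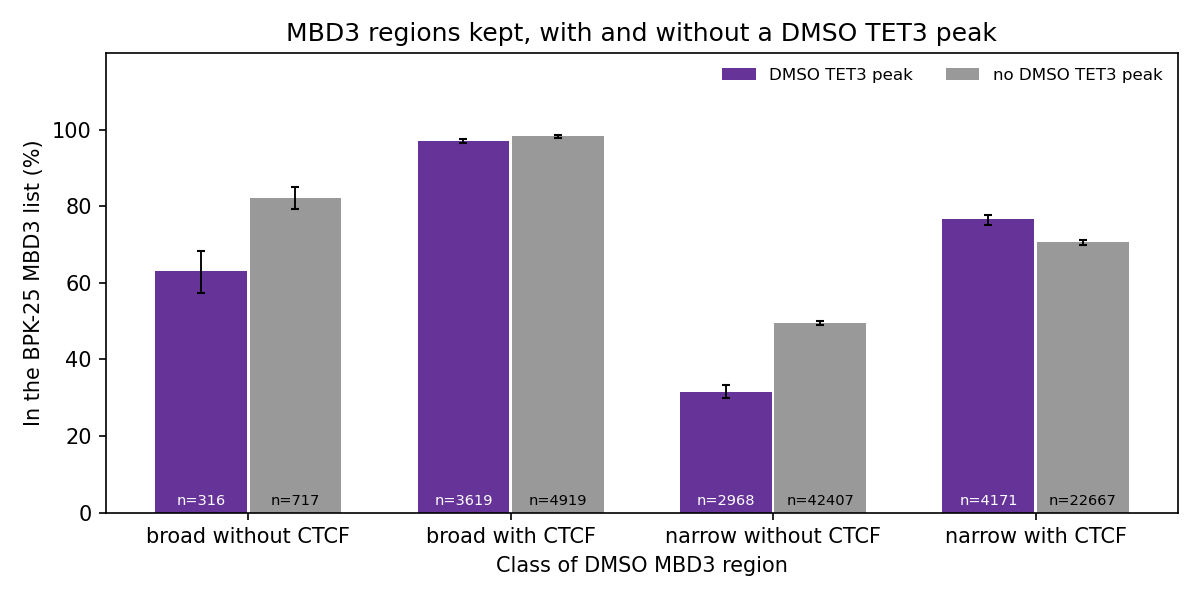
Share of DMSO MBD3 regions that overlap a BPK-25 MBD3 peak (vertical axis, percent), with a DMSO TET3 peak (purple) and without one (grey), in the 4 classes of MBD3 region (horizontal axis); n is the number of regions and bars are exact 95% intervals. Both CTCF-free classes are lower with TET3, at 63.0% against 82.1% and at 31.6% against 49.4%.

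Patterns across the 8 lists not used for the selection were counted for the domains only. Of all DMSO MBD3 regions, 55.6% were in both BPK-25 lists of CTCF and MBD3, and 15.5% had a DMSO TET peak. The commonest pattern of the domains was a peak in both of these BPK-25 lists and in 0 TET lists, with 517 of the 1033 domains. Whether this pattern is commoner in the domains than in other MBD3 regions was not tested. A further 105 domains (10.2%) added DMSO TET3 to these, and 82 (7.94%) had no peak in any of the 8. The domains chr1:16871669-16872598 and chr8:124169101-124170186 were in all 8. Both had higher fold enrichments for TET3 than for MBD3: the first 18.1 under DMSO and 29.7 under BPK-25 against an MBD3 value of 7.35 under DMSO, and the second 16.9 and 18.0 against 4.65. The domain chr6:27197537-27198522, without a BPK-25 MBD3 or CTCF peak, was in all 6 TET lists, with TET3 at 10.1 under DMSO and 20.4 under BPK-25. The domain chr7:148679699-148680965 was in 6 lists too, TET1 and TET3 in both treatments among them. A further 5 domains, of lower -log10 q, were also in 6. The other two domains with the most lists, chr2:74327514-74329303 and chr2:74273430-74275496, were each in 7, but there the local background of the TET3 lists was 421 to 877 times the genome background, and that of the DMSO TET1 list 374 and 350 times, while it was 1.00 and 1.24 times in the DMSO MBD3 list.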

How the data were processed

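The 53 samples (29 immunoprecipitates, 24 inputs) fall into 18 groups. Per the submitters' processing notes, hg19, MACS2 2.1.2, Bowtie2 2.3.4, bedtools 2.25.0, SAMtools 1.9 and FastQC 0.11.7 were used; which step each served, and with what settings, is not given in the sources used here. The deposited lists give per summit the authors' fold enrichment (a ratio), -log10 values of p and q, and the offset of the summit.

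Intervals that overlapped or touched were merged, keeping the summit of highest -log10 q. Pileup and local background were solved from -log10 p and fold enrichment, read as (pileup + 1) / (background + 1); 100% of pileups under 200 were whole to within 0.02. The lowest local background, the genome background, follows depth: 3.21 fragments for MBD3 under DMSO, 2.57 under BPK-25, 3.68 and 2.58 for CTCF, and 1.05 to 1.85 for the TET lists. At it, the lowest pileup called was 8 to 11. Shares carry exact Clopper-Pearson 95% intervals. Code was tested on simulated data (Python 3.11.15, SciPy 1.17.1).

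The members and splits were chosen with earlier results of these data known. Named regions: among members with a local background under 20 times the genome background, the 6 widest, the 6 of highest -log10 q, the same without a BPK-25 MBD3 peak within 1000 bp, the 6 in most lists (ties by -log10 q) and the 4 longest runs. No hg19 sequence or gene annotation was used, so genes and motifs are not analysed here. A further 5 such regions lay on other sequences.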

Additional observations from a re-analysis of the deposited data

How the results depend on the processing

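With 1 pooled list per group, replicates could not be left out. No paired analysis was possible because the lists pool the replicates. At a -log10 q of at least 5 in all lists there were 1537 domains. Of these, 72.0% were kept, 70.8% were in the BPK-25 CTCF list and 16.2% had a DMSO TET peak. At 10 or more there were 2147 domains, since weak CTCF peaks no longer removed regions, with 57.1%, 54.8% and 7.08%. At 1200 bp or wider there were 202 domains, with 88.6%, 87.1% and 40.6%. Merging intervals within 500 bp gave 2510 domains, with 69.7%, 69.7% and 25.9%. With no DMSO CTCF peak within 1000 bp there were 750 domains, with 74.1%, 71.3% and 32.7%. Requiring 50% of the domain to be covered gave 45.6%, 42.2% and 6.97%, and requiring the summit to be covered 57.1%, 56.6% and 19.7%. BPK-25 lists as short as the DMSO lists gave 51.2% and 56.3%. Leaving out 3 domains at peaks of high local background, chosen after seeing the data, gave values within the main intervals. For the difference in the share kept with TET3, all 9 alternatives were chosen after seeing the data. It ran from -25.4 to -3.61 percentage points, and its interval included 0 in 1 of them, a -log10 q of at least 10 (-12.3 to 4.93). Enrichment below the lowest pileup called at the genome background, 8 to 11 fragments, is not seen in these lists.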
